A study of Homo sapiens with 16 samples.

Results

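The 102 genes described here encode subunits of the respiratory chain and of the ATP synthase. They were measured by RNA-seq in SW480, a line established from a human colon adenocarcinoma. Members were chosen by name alone: protein-coding genes whose symbol starts with MT-ND, MT-CO, MT-ATP or MT-CYB, with NDUF followed by A, B, C, S or V and a number, with UQCR, with COX and a number from 4 to 8, or with ATP5, and the genes SDHA, SDHB, SDHC and SDHD. Of the 66023 genes counted, 13 members are encoded by the mitochondrial genome and 89 by the nuclear genome. The question asked of them was how the mitochondrial and the nuclear genes compare across 6 SW480 lines with normal, lowered or raised expression of Ajuba, a LIM domain scaffold protein.

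All lines are SW480 between passages 10 and 18. Parental (n = 2) carried no construct. The other 5 were transduced with lentivirus and selected with puromycin: shScrambled (n = 2) carried a scrambled short hairpin RNA, shAjuba1 (n = 3) a hairpin against the coding region of Ajuba, and shAjuba2 (n = 3) a hairpin against its non-coding region. Ajuba OE (n = 3) expressed Ajuba with a C-terminal FLAG-HA tag from a CMV promoter, and Control (n = 3) carried the overexpression construct from which the Ajuba sequence had been removed. Samples of a line are called technical replicates by the study, so p-values measure only the spread between these samples, which may be technical. Total counts per sample ranged from 30132396 to 69684675.

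The AJUBA level, in RPM (counts of a gene per 1000000 counts of the sample), was checked first. The controls stood at 88.8 and 91.6 (Parental), 83.4 and 81.6 (shScrambled) and 89.6, 100.5 and 89.4 (Control), the knockdown (KD) lines at 49.6, 47.3 and 53.5 (shAjuba1) and 60.3, 68.6 and 57.1 (shAjuba2), and the overexpressing line, Ajuba OE, at 550, 462 and 566. The levels follow the labels, with no overlap between either KD line and shScrambled or between Ajuba OE and Control. The log2 fold change by edgeR's quasi-likelihood test was -0.73 ± 0.08 (SE) in shAjuba1 (adjusted p = 2.19e-05), -0.46 ± 0.13 in shAjuba2 (adjusted p = 0.0773) and 2.56 ± 0.11 in Ajuba OE (adjusted p = 7.69e-05). The epithelial markers EPCAM, CDH1, KRT8, KRT18, VIL1 and CDX2 were detected in all samples (lowest 3.92 RPM, for CDH1), whereas PTPRC of leukocytes, PECAM1 of endothelium and COL1A2 of fibroblasts stayed at or below 0.745 RPM.

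Electrons from nutrients enter the respiratory chain of the inner mitochondrial membrane at complex I (NADH dehydrogenase) or complex II (succinate dehydrogenase), pass through complex III (the cytochrome bc1 complex) to complex IV (cytochrome c oxidase), and drive a proton gradient that complex V (ATP synthase) uses to make ATP. The mitochondrial genome encodes the hydrophobic core of complexes I, III, IV and V, while all of complex II and most subunits of the others are encoded in the nucleus and imported. The RNAs of both genomes are therefore made by separate polymerases and meet only as proteins in the same complex.

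Complex I is represented by 7 mitochondrial and 37 nuclear genes, complex II by 4 nuclear genes, complex III by 1 and 9, complex IV by 3 and 19, and complex V by 2 and 20. NDUFA4 and its paralogue NDUFA4L2 bear names of complex I but were placed in complex IV, where the NDUFA4 protein resides. Across all 6 lines 85 nuclear members passed the filter on low counts and 4 did not: the read-through gene NDUFC2-KCTD14, which had no count in any sample, the muscle isoform COX6A2, the testis isoform COX8C, and ATP5MGL, a retrotransposed copy. In each comparison of shAjuba1, shAjuba2 or Ajuba OE with its control 83 nuclear members were tested, against 84 for Control against shScrambled, and all 13 mitochondrial members were tested throughout. For 19 members more than 10% of the exonic length lies under another gene on the same strand, so that reads of both may be mixed or dropped, among them NDUFV2 (28.4%), ATP5MK (15.4%), SDHD (11.4%) and MT-ATP8 (22.2%).

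The mitochondrial genes stood far above the nuclear ones in level. Mean RPM per kilobase of the canonical transcript ran from 3769 (MT-ND1) to 15746 (MT-CO2) among mitochondrial genes, with a median of 7858, whereas the nuclear median was 43.3 and the nuclear maximum 317.5 (ATP5MF). The highest nuclear gene per length was NDUFA1 in complex I (195.4), SDHC in complex II (74.2), UQCRH in complex III (201.0), COX6B1 in complex IV (245.3) and ATP5MF in complex V. ATP5F1B, the catalytic beta subunit of the ATP synthase, followed ATP5MF at 300.2 RPM per kilobase. These ranks depend on the length of the annotated canonical transcript. For example, ATP5F1E had a higher mean RPM than ATP5MF (233.7 against 140.65), but its canonical transcript has 3610 bases against 443, which gives 64.7 RPM per kilobase.

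Where a subunit has alternative isoforms, the ubiquitous form carried nearly all of the counts. COX4I1 ranged from 54.4 to 126.6 RPM over the 16 samples, while its hypoxia- and lung-associated counterpart COX4I2 did not exceed 0.455 RPM. COX6A1 (26.4 to 89.6 RPM), COX6B1 (64.1 to 165.2 RPM) and COX8A (43.5 to 118.8 RPM) stood in the same relation to COX6A2 (at most 0.0228 RPM), COX6B2 (1.73 to 5.57 RPM) and COX8C (at most 0.0549 RPM). COX7A2 (25.6 to 68.2 RPM) exceeded the muscle form COX7A1 (0.635 to 1.55 RPM), and COX7B (33.5 to 92.6 RPM) exceeded COX7B2 (at most 0.316 RPM). All of these are pairs of complex IV, and no sample had a minor form above its ubiquitous partner.
The same held for UQCRH (50.5 to 151.0 RPM) against its retrotransposed copy UQCRHL (1.33 to 2.59 RPM) in complex III. The 3 genes for the identical c subunit of the ATP synthase rotor were all expressed, at 30.7 to 62.2 RPM for ATP5MC1, 97.0 to 169.9 RPM for ATP5MC2 and 47.1 to 144.6 RPM for ATP5MC3. The read-through ATP5MF-PTCD1 was at 0.204 to 0.667 RPM.

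The mitochondrial genome is so compact that some of its genes share bases, and the shared stretches are shown because a read in them belongs to both genes. MT-ATP8 and MT-ATP6, both of complex V, overlap by 46 bases at chrM:8527-8572, and MT-ND4L and MT-ND4, both of complex I, overlap by 7 bases at chrM:10760-10766 (hg38, plus strand, overlap in capitals).
MT-ATP8 and MT-ATP6: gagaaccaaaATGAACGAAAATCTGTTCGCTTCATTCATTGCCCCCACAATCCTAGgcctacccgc
MT-ND4L and MT-ND4: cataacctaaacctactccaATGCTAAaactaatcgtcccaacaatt
Each overlap starts with the ATG of the downstream gene. MT-ATP8 and MT-ND4L, the shorter gene of each pair, were at 14379 and 14462 RPM per kilobase, above MT-ATP6 (6327) and MT-ND4 (7235). In mean RPM the order was the reverse, with MT-ATP8 at 2976.5 and MT-ND4L at 4295, below MT-ATP6 (4309) and MT-ND4 (9970). The shorter genes have only 207 and 297 bases, against 681 and 1378. How such short lengths affect values per kilobase was not tested, so these values are not read as a difference in RNA abundance.

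The 13 mitochondrial genes took 6.33% to 12.7% of all counts of a sample and the 89 nuclear genes 0.341% to 0.738%. By line the mitochondrial share went up from Parental with 6.86% ± 0.747 (SD, n = 2) through Ajuba OE with 8.65% ± 2.34 (n = 3), Control with 8.93% ± 2.30 (n = 3), shAjuba2 with 9.51% ± 2.85 (n = 3) and shAjuba1 with 10.3% ± 0.508 (n = 3) to shScrambled with 10.6% ± 1.19 (n = 2). The nuclear share went down from Parental with 0.696% ± 0.0373 through Ajuba OE with 0.593% ± 0.148, shScrambled with 0.589% ± 0.0408, shAjuba1 with 0.550% ± 0.0070 and Control with 0.525% ± 0.124 to shAjuba2 with 0.500% ± 0.142. Parental thus had the lowest mitochondrial and the highest nuclear mean of the 6 lines. Its samples lay below both of shScrambled and all 3 of shAjuba1 in mitochondrial share, while shAjuba2, Control and Ajuba OE each had a sample between the Parental values of 6.33% and 7.39%. Lines next to each other in either order had overlapping samples, except shScrambled and shAjuba1 in nuclear share, whose nearest samples were at 0.560% and 0.557%.

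The ratio of mitochondrial to nuclear counts, which does not depend on how a library is scaled, was 11.0 and 8.77 in the Parental samples, 15.8 and 20.4 in those of shScrambled, and 18.0, 18.9 and 19.3 in those of shAjuba1. For replicates 1, 2 and 3 it was 16.1, 37.1 and 11.6 in shAjuba2, 11.2, 29.8 and 14.6 in Control, and 9.46, 25.6 and 12.7 in the Ajuba OE line. In the last 3 lines replicate 2 stood far above replicates 1 and 3, which lay between 9.46 and 16.1. On the log2 scale the difference of line means was 0.061 for shAjuba1 against shScrambled, 0.085 for shAjuba2 against shScrambled, -0.22 for Ajuba OE against Control and -0.081 for Control against shScrambled. In each of these 4 comparisons the samples of both lines overlapped, and leaving out a single sample could turn the sign of the difference. In bulk samples fewer mitochondrial transcripts per cell and fewer cells with many of them cannot be told apart.

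**Figure D1:**
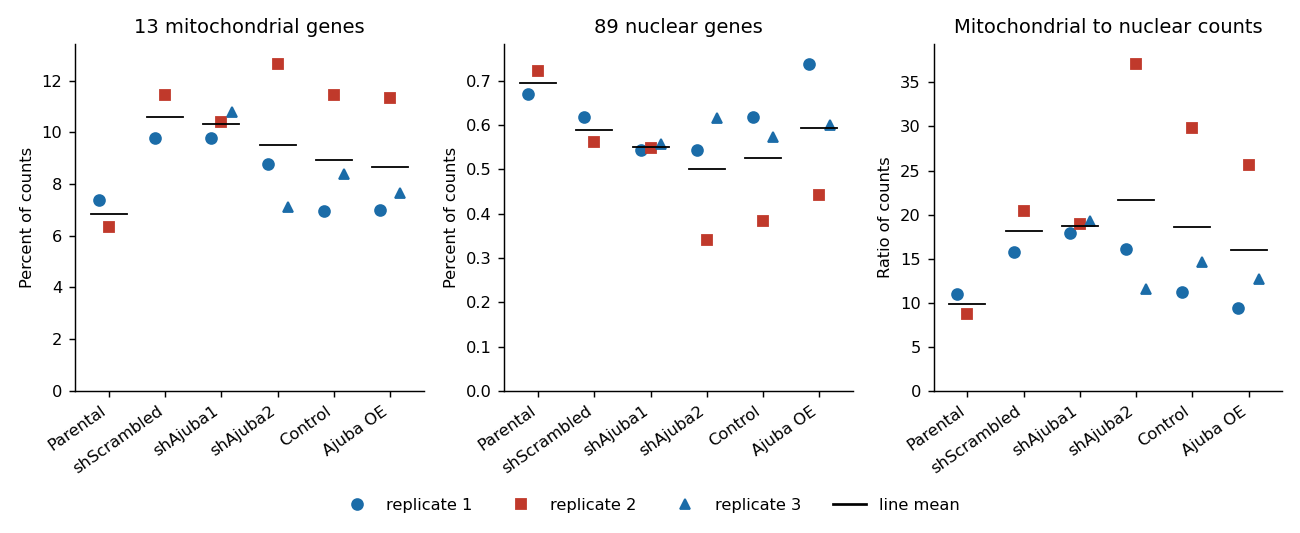
Percent of all counts on the 13 mitochondrial genes (left) and the 89 nuclear genes (middle), and the ratio of their counts (right), for each sample of the 6 lines; symbols and colours mark the replicate number and bars the line mean. Replicate 2 of shAjuba2, Control and Ajuba OE had ratios of 37.1, 29.8 and 25.6, above the other 13 samples.

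In these 3 samples the genes of both genomes moved apart. Relative to the mean of replicates 1 and 3 of the same line, on the scale of log2(RPM + 1), the median mitochondrial gene stood 0.67, 0.66 and 0.73 higher in replicate 2, and the median of the 85 nuclear genes stood 0.79, 0.69 and 0.59 lower. Replicate 2 was the highest of the 3 samples for 13, 13 and 12 of the 13 mitochondrial genes and the lowest for 76, 68 and 72 of the 85 nuclear genes. Over all 23597 genes it was the highest for 38.3%, 42.4% and 37.0% and the lowest for 42.3%, 37.1% and 40.45%. The median over 23597 genes was -0.01, 0.02 and -0.01. In shAjuba1 the corresponding medians for replicate 2 were 0.03 for mitochondrial and 0.01 for nuclear genes. The 3 samples thus stand apart from the other samples of their lines in the same direction, although the labels give them nothing in common but the number.

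Other RNA classes moved with the same samples. Cytosolic ribosomal protein genes took 1.32%, 1.71% and 2.15% of the counts in these 3 samples (shAjuba2, Control, Ajuba OE), against 2.66% to 4.32% in the other 13 samples. The mitochondrial ribosomal RNAs MT-RNR1 and MT-RNR2 together reached 85053, 69714 and 98287 RPM, against 26278 to 71799 RPM elsewhere. The nuclear-retained RNAs MALAT1 and NEAT1 summed to 19419, 23140 and 18204 RPM, against 8634 to 18868 RPM elsewhere. The ribosomal protein share separated the 3 samples from all others, while for the last 2 classes 1 of the 3 lay within the range of the others. The part of these classes in the values of the respiratory chain genes was not tested, and counts of called genes that changed without the 3 samples are given both ways below. Without the 3 samples the mean ratio was 13.8 ± 3.23 (SD, n = 2) in shAjuba2, 12.9 ± 2.39 (n = 2) in Control and 11.1 ± 2.32 (n = 2) in Ajuba OE, all below shScrambled (18.1 ± 3.28, n = 2) and shAjuba1 (18.7 ± 0.703, n = 3) and above Parental (9.90 ± 1.61, n = 2).

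**Figure D2:**
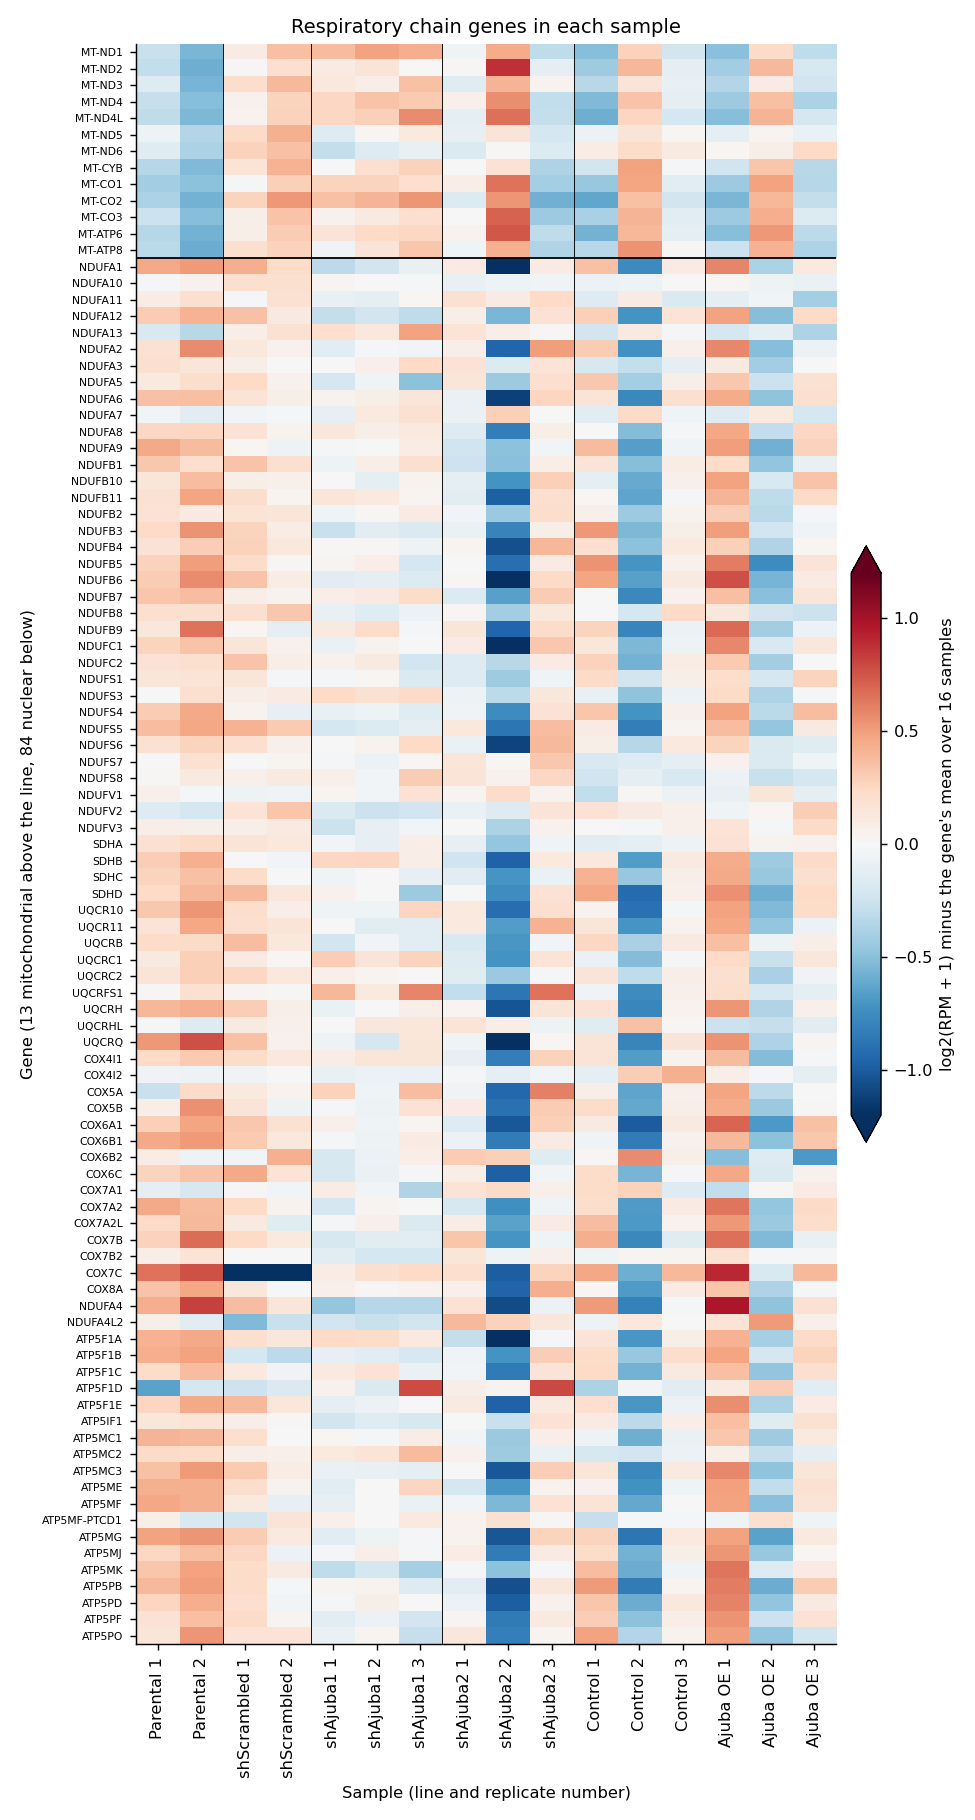
Heatmap of log2(RPM + 1) of 13 mitochondrial and 84 nuclear genes (rows) in 16 samples (columns), as the difference from each gene's mean over the samples; red is higher, blue lower. Replicate 2 of shAjuba2, Control and Ajuba OE is blue for most nuclear genes (76, 68 and 72 of all 85 tested at their line's lowest value) and red for mitochondrial genes, and COX7C is darkest blue in shScrambled. Of 23597 genes, 42.3%, 37.1% and 40.45% were at their line's lowest value in these replicates 2.

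ShAjuba1 was compared with shScrambled, the hairpin control, to ask how the stronger KD relates to respiratory chain expression. Of the 83 nuclear members tested 24 were lower and 2 were higher in shAjuba1, and of the 13 mitochondrial members 2 were lower and 0 higher, by edgeR's quasi-likelihood test with a Benjamini-Hochberg adjusted p under 0.05 over all genes tested. In this comparison 38.4% of the 21082 genes were differentially expressed (DEG), 18.2% higher and 20.2% lower. The share of nuclear members called, 31.3%, thus lay below that of all genes, and most of those called were lower. Their median log2 fold change was -0.14 against -0.01 over all genes, with 62 of 83 below 0, whereas the mitochondrial median was -0.041 with 7 of 13 below 0.
The counts rested in part on the shScrambled samples: without replicate 1 of shScrambled 8 nuclear members were lower and 1 higher, and without its replicate 2 these numbers were 16 and 1. With all 16 samples in the fit, which brings in the spread of the other lines, 2 nuclear members were lower and 1 higher. The shares of all genes called in these fits are not given here, so the counts are not read as particular to the members.

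In complex I 9 of 36 nuclear members tested fell in shAjuba1 and 0 rose. NDUFA1, a small membrane subunit needed for assembly of the complex, was at 106.5 and 91.6 RPM in shScrambled and at 62.7, 67.0 and 73.6 RPM in shAjuba1 (log2 fold change -0.56 ± 0.09, SE; adjusted p = 0.000500). NDUFS5, an accessory subunit, was at 51.4 and 47.8 RPM in shScrambled and at 32.9, 34.0 and 35.4 RPM in shAjuba1 (-0.56 ± 0.09; adjusted p = 0.000281). NDUFA12, another accessory subunit, was at 84.2 and 70.7 RPM in shScrambled and at 53.8, 56.2 and 53.0 RPM in shAjuba1 (-0.53 ± 0.09; adjusted p = 0.000773). For each of the 3 genes every shAjuba1 sample lay below both shScrambled samples. NDUFV2, an iron-sulphur subunit of the NADH-oxidising arm, was lowly counted, at 7.21 and 8.23 RPM in shScrambled and 5.48, 5.14 and 5.27 RPM in shAjuba1 (-0.56 ± 0.12; adjusted p = 0.00272), and the call was lost without replicate 2 of shScrambled (adjusted p = 0.0549). The other 5 that fell, NDUFB8, NDUFA5, NDUFB6, NDUFB3 and NDUFB4, had log2 fold changes of -0.45 to -0.23.

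In complex II only SDHD, a membrane anchor of the succinate dehydrogenase, passed the test. SDHD was at 56.4 and 47.3 RPM in shScrambled and at 44.4, 42.9 and 31.4 RPM in shAjuba1 (log2 fold change -0.40 ± 0.14; adjusted p = 0.0370), and the call was lost when either shScrambled sample was left out (adjusted p = 0.367 and 0.0587). SDHA, the flavoprotein, was at 129.2 and 126.5 RPM in shScrambled and at 113.6, 108.0 and 122.3 RPM in shAjuba1, SDHB, the iron-sulphur subunit, at 42.1 and 40.9 against 50.0, 50.2 and 44.3 RPM, and SDHC, the other anchor, at 110.4 and 94.9 against 91.2, 94.7 and 88.5 RPM. None of these 3 passed the threshold in this comparison.

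In complex III 2 of 9 nuclear members fell (UQCRB, -0.40 ± 0.09, and UQCR11, -0.29 ± 0.10) and UQCRFS1 rose. UQCRFS1, the Rieske iron-sulphur protein that takes electrons from ubiquinol, was at 40.1 and 39.5 RPM in shScrambled and at 51.8, 42.5 and 59.1 RPM in shAjuba1 (log2 fold change 0.35 ± 0.12; adjusted p = 0.0323). The samples did not overlap, but the call was lost without replicate 1 of shAjuba1 (adjusted p = 0.0789) and without replicate 1 or 2 of shScrambled (adjusted p = 0.136 and 0.188).

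Complex IV held both the largest fall and the largest rise. NDUFA4, a subunit of cytochrome c oxidase, was at 131.3 and 112.3 RPM in shScrambled and at 73.0, 79.9 and 79.7 RPM in shAjuba1 (log2 fold change -0.67 ± 0.09; adjusted p = 9.09e-05). It also lay below both Parental samples (137.7 and 180.0 RPM), with a log2 fold change against Parental of -1.07. COX6C, COX7B, COX6A1 and COX6B1, nuclear subunits around the catalytic core, fell by 0.43, 0.35, 0.25 and 0.23 on the log2 scale. COX7C, a small subunit of the same complex, was higher in shAjuba1 (log2 fold change 1.58 ± 0.11; adjusted p = 2.73e-07), and its values by line are given further on because shScrambled itself stood apart.

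In complex V 7 of 19 nuclear members tested fell and 0 rose. ATP5MK, a small membrane subunit also known as DAPIT, was at 51.3 and 47.7 RPM in shScrambled and at 35.4, 37.8 and 33.1 RPM in shAjuba1 (log2 fold change -0.50 ± 0.09; adjusted p = 0.00115). ATP5F1E, ATP5MC3, ATP5MG, ATP5PF, ATP5PO and ATP5IF1 fell by 0.25 to 0.34 on the log2 scale. ATP5IF1, the protein that inhibits ATP hydrolysis by the synthase, was at 61.2 and 58.4 RPM in shScrambled and at 49.6, 52.3 and 50.6 RPM in shAjuba1 (-0.25 ± 0.08; adjusted p = 0.0319). The catalytic subunit ATP5F1B was at 442.8 and 413.5 against 478.9, 468.0 and 449.6 RPM and was not called.
The 24 nuclear members that fell had canonical transcripts of a median of 750 bases, against 804 bases for the 57 that did not pass the test, and 7 of the 24 share more than 10% of their exonic length with another gene on the same strand, as do 10 of the 57.

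Among the mitochondrial genes 2 neighbours were called in shAjuba1. MT-ND5 was at 15015 and 17201 RPM in shScrambled and at 11480, 13012 and 13891 RPM in shAjuba1 (log2 fold change -0.35 ± 0.10; adjusted p = 0.0155). MT-ND6 was at 4963 and 5208 RPM in shScrambled and at 3347, 3667 and 3853 RPM in shAjuba1 (-0.50 ± 0.09; adjusted p = 0.000817). The call of MT-ND5 was lost without replicate 1 or 2 of shAjuba1 or replicate 2 of shScrambled (adjusted p = 0.0962, 0.0575 and 0.112), while that of MT-ND6 held without any single sample. Against Parental neither was lower (log2 fold changes of 0.17 and 0.052, adjusted p = 0.204 and 0.692). For each gene the shScrambled samples were the highest of all 16. For MT-ND6 every shAjuba1 sample also lay below all samples of Control (4357, 4777 and 4395 RPM) and Ajuba OE (4152.5, 4288 and 4834 RPM). For MT-ND5 the shAjuba1 samples overlapped with those of both lines. The part of the control line in these calls was not tested. MT-ND5 lies at chrM:12337-14148 on the plus strand and MT-ND6 at chrM:14149-14673 on the minus strand, the only member encoded there, so that the reading of MT-ND6 also depends on how strand was handled in counting, which is not given in the sources used here. MT-ND6 counts were 0.277 to 0.398 of MT-ND5 counts over the 16 samples.

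The other 11 mitochondrial genes did not pass the test in shAjuba1. MT-CO1, the catalytic subunit of cytochrome c oxidase, was at 12755 and 15733 RPM in shScrambled and at 15551, 15484 and 14804 RPM in shAjuba1, with a log2 fold change of 0.09 ± 0.10. MT-ND1 and MT-ND4L had the highest fold changes (0.18 ± 0.10 and 0.20 ± 0.11, adjusted p = 0.162 and 0.183), followed by MT-ND4 (0.12), MT-CO2 (0.02) and MT-ATP6 (0.01). MT-ND2 (-0.04), MT-ATP8 (-0.10), MT-CO3 (-0.10), MT-ND3 (-0.13) and MT-CYB (-0.15) lay below 0. Genes read from the same strand thus did not all lie on the same side of 0.

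**Figure D3:**
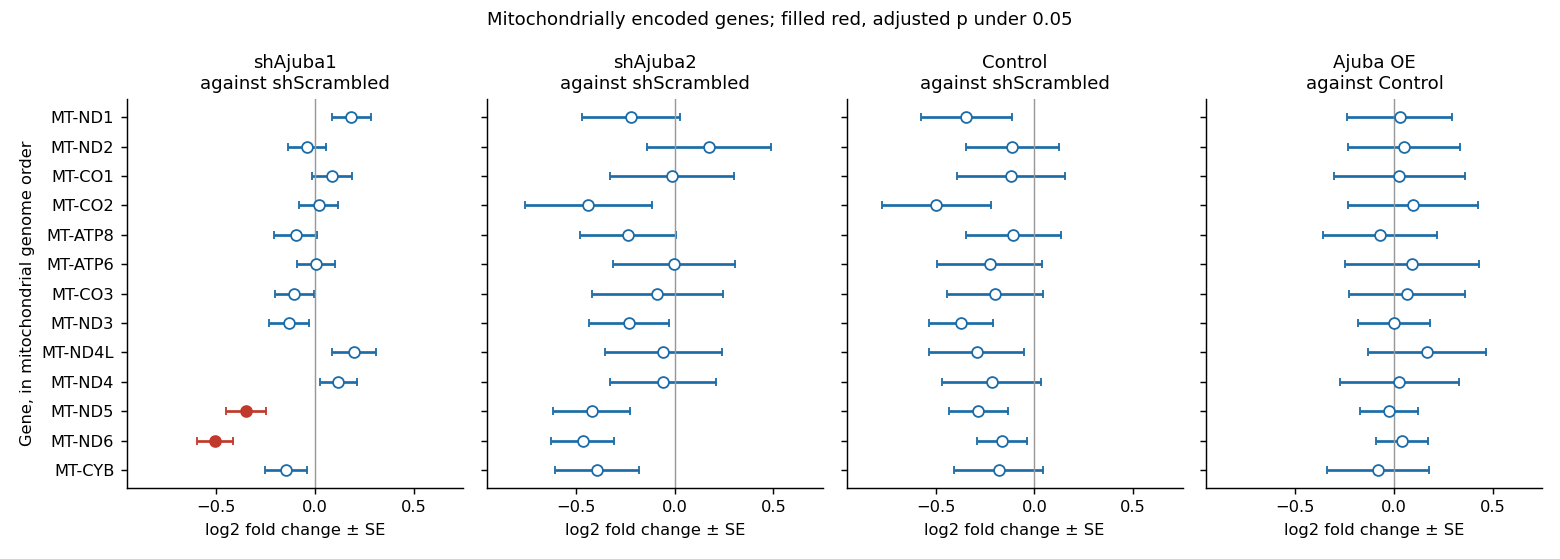
Log2 fold change with its standard error (horizontal bars) of the 13 mitochondrial genes, in genome order from top to bottom, in 4 comparisons; filled red points passed an adjusted p of 0.05. Only MT-ND5 (-0.35) and MT-ND6 (-0.50) did so, in shAjuba1, and the standard errors are smaller there than in the other comparisons.

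Parental cells were used as a second reference for shAjuba1. Against Parental 11 of 13 mitochondrial genes were higher and 0 lower (median log2 fold change 0.58), and 51 of 83 nuclear members were lower and 2 higher (median -0.36). Over all genes tested 17.6% were higher and 20.5% lower. Of 79 cytosolic ribosomal protein genes tested, 62 were lower. The signs were alike in other lines against Parental. In both shAjuba2 and Ajuba OE 13 of 13 mitochondrial members lay above 0 (medians 0.43 and 0.43), with 0 called. Of 84 nuclear members 72 lay below 0 in each (medians -0.52 and -0.18), with 1 and 0 called. The choice of control thus changed the mitochondrial calls from 2 genes lower to 11 genes higher. Nuclear members with a log2 fold change below 0 were 62 of 83 against shScrambled and 71 of 83 against Parental. By test 24 and 51 of the 83 were lower, and the 24 rested in part on the shScrambled samples, as given above.

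ShAjuba2, the weaker KD, differed little from shScrambled by test. NDUFA4L2, a hypoxia-induced paralogue of NDUFA4, was the only member called: it was higher at 2.09, 1.85 and 1.58 RPM against 0.631 and 0.954 RPM in shScrambled (log2 fold change 1.14 ± 0.26; adjusted p = 0.0409). The call was lost without replicate 1 of shAjuba2 (adjusted p = 0.132) or without either shScrambled sample (adjusted p = 0.333 and 0.152), and Parental, at 1.47 and 1.14 RPM, lay between the lines. Control, at 1.25, 1.57 and 1.37 RPM, and Ajuba OE, at 1.64, 2.35 and 1.46 RPM, also lay above both shScrambled samples. The gene had only 23 to 114 counts per sample. So 1 of 83 nuclear and 0 of 13 mitochondrial members were DEG by edgeR, beside 7.63% of the 22446 genes tested, with 12 nuclear and 1 mitochondrial member at an unadjusted p under 0.05 and 2 and 1 called by DESeq2. The median log2 fold change was -0.32 for nuclear members, with 72 of 83 below 0, and -0.22 for mitochondrial members, with 12 of 13 below 0. Over all genes the median was -0.01, with 11344 of 22446 below 0. Cytosolic ribosomal protein genes (73 of 79) and mitochondrial ribosomal protein genes (68 of 81) also lay mostly below 0, so the nuclear signs were not particular to the members.
The result changed without replicate 2 of shAjuba2: 9 of 13 mitochondrial genes were lower and 0 higher (median -0.48), and 10 nuclear members were lower and 3 higher (median -0.12), where 22.7% of all genes were DEG. The 4 succinate dehydrogenase genes were below 0 in the fit of all samples (-0.34 to -0.47), and none was called. Without replicate 2 their log2 fold changes lay between -0.28 and -0.096, and 1 of the 4 was lower by test.

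Ajuba OE and Control did not differ in any member by edgeR. No nuclear member of 83 and no mitochondrial member of 13 was DEG, where 5.43% of the 21140 genes tested were, 5 nuclear and 0 mitochondrial members had an unadjusted p under 0.05, and DESeq2 called 1 and 0. Nuclear members had a median log2 fold change of 0.23 with 75 of 83 above 0, and mitochondrial members one of 0.03 with 9 of 13 above 0. Over all genes the median was -0.01, with 10142 of 21140 above 0. The nuclear shift was not particular to the members. Cytosolic ribosomal protein genes had 78 of 79 above 0 (median 0.35) and mitochondrial ribosomal protein genes 79 of 81 (median 0.23). Both lines contain a replicate 2 that stands apart, and the samples overlapped for 80 of the 83 nuclear and all 13 mitochondrial members. The share of all genes with overlapping samples is not given here, so the overlap is not read as particular to the members. NDUFA4, for example, was at 144.5, 57.3 and 99.7 RPM in Control and at 199.7, 72.1 and 115.0 RPM in Ajuba OE, with replicate 2 the lowest in each. When both replicates 2 were left out, 5 nuclear members were higher and 1 lower, 0 mitochondrial members were called, and 8.18% of all genes were DEG.

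Control and shScrambled are both control lines, and their comparison shows how far lines not made to change Ajuba lie apart. COX7C was the only nuclear member called of 84, and 0 of 13 mitochondrial members were called by edgeR, beside 5.8% of the 21940 genes tested, with 6 and 0 at an unadjusted p under 0.05 and 1 and 0 called by DESeq2. The median log2 fold change was -0.21 for nuclear members and -0.22 for mitochondrial members, and all 13 of the latter were below 0. Over all genes the median was 0.01, with 10575 of 21940 below 0, and 74 of 79 cytosolic ribosomal protein genes also lay below 0. MT-CO2, which had the lowest value (-0.50 ± 0.27), did not pass the test (adjusted p = 0.363). Without replicate 2 of Control 9 mitochondrial genes were lower and 0 higher (median -0.46), and 2 nuclear members were lower and 2 higher, where 17.4% of all genes were DEG. The mitochondrial count and median without that sample were thus close to those of shAjuba2 without its replicate 2, both against the same shScrambled samples.

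**Figure D4:**
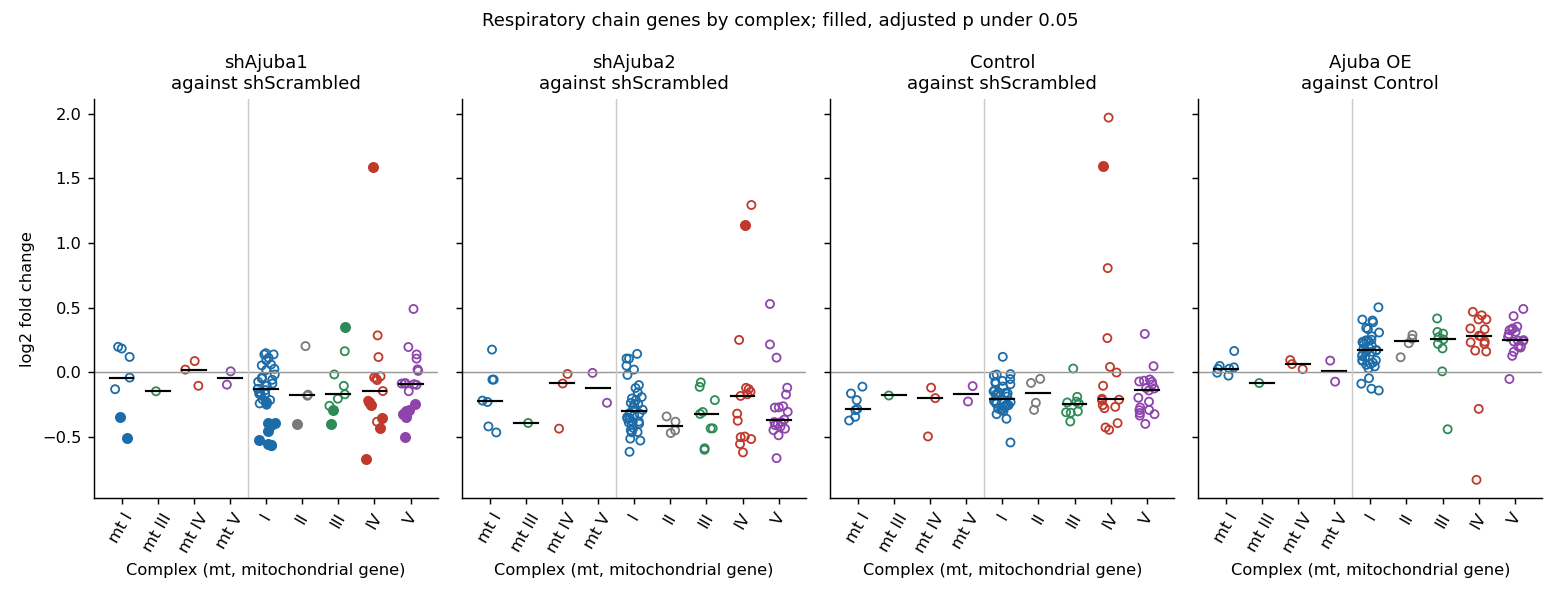
Log2 fold change of the members by complex in 4 comparisons, mitochondrial genes (mt) to the left of the grey line and nuclear genes to the right; filled points passed an adjusted p of 0.05 and bars mark the median of each group. Filled points below 0 appear only in shAjuba1 (24 nuclear and 2 mitochondrial genes), and the nuclear medians of Ajuba OE lie above 0 without a filled point.

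COX7C was among the members that set shScrambled apart from the other lines. Both shScrambled samples also lay above all others for MT-ND5, MT-ND6 and NDUFA10, and below all others for NDUFA4L2. For COX7C the scrambled hairpin line had 30.6 and 24.8 RPM and Parental 116.9 and 126.8 RPM. The KD lines had 79.2, 84.8 and 87.9 RPM (shAjuba1) and 85.7, 36.8 and 89.2 RPM (shAjuba2), Control had 102.7, 49.1 and 97.4 RPM, and Ajuba OE had 139.5, 65.5 and 97.6 RPM. Both shScrambled samples lay below all others, whose median was 88.6 RPM, and the lowest values elsewhere were those of the 3 replicates 2 named above. The log2 fold change against shScrambled was 1.58 in shAjuba1, 1.29 ± 0.35 in shAjuba2 (adjusted p = 0.0652) and 1.59 ± 0.32 in Control (adjusted p = 0.0334). The call in Control was lost without replicate 1 or 3 of Control (adjusted p = 0.0626 and 0.142) or either shScrambled sample (adjusted p = 0.174 and 0.277). Against Parental the direction turned, to -0.57 in shAjuba1 (adjusted p = 0.000232) and -0.54 in Control (adjusted p = 0.332). COX7C lies at chr5:86617928-86620962 on the plus strand. The nearest protein-coding genes that passed the filter on low counts were TMEM167A, XRCC4, RASA1 and CCNH, chosen after the value of COX7C was seen. They were called neither in shAjuba1 nor in Control, with log2 fold changes of -0.24 to 0.34. XRCC4 ends at chr5:83353787 and RASA1 starts at chr5:87267883, and any genes in between that did not pass the filter are not covered.

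**Figure D5:**
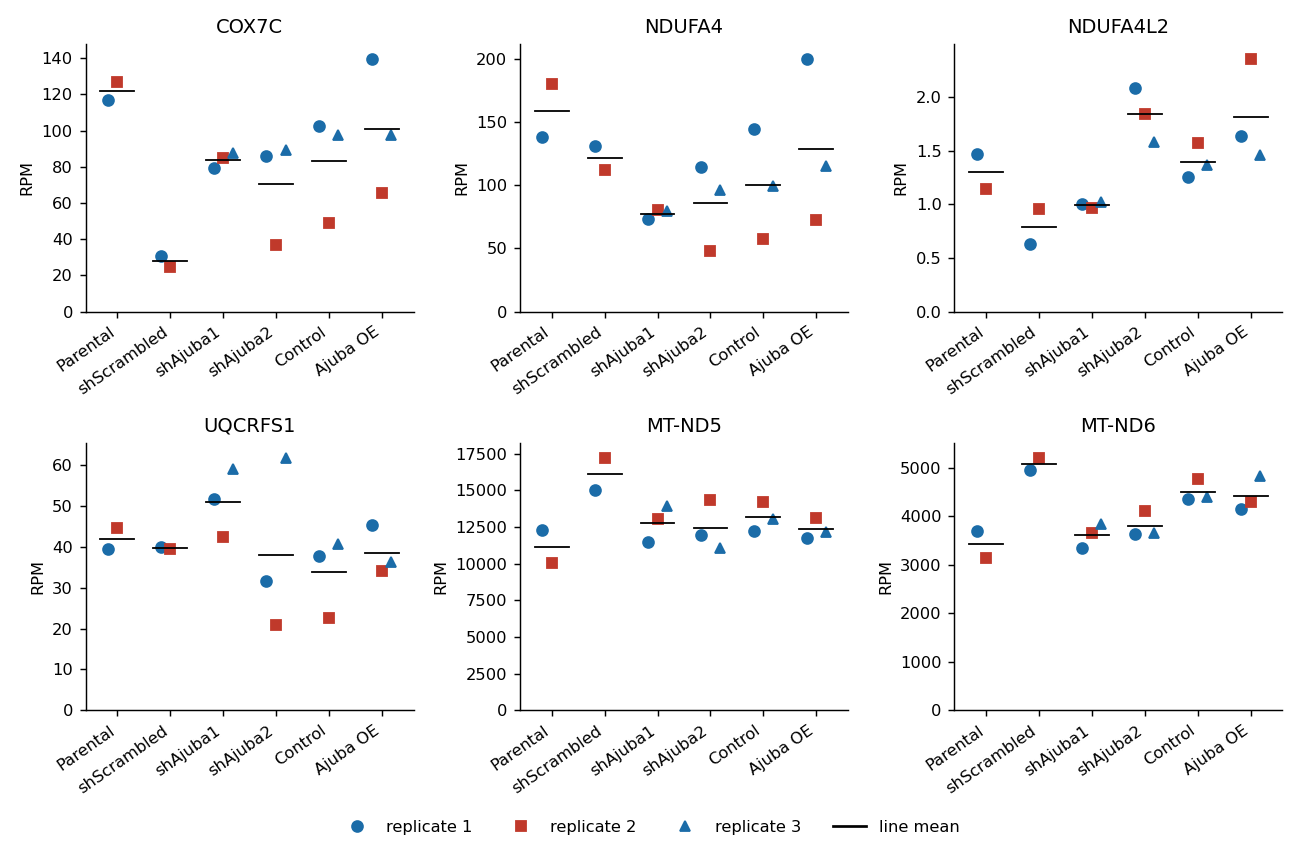
RPM of COX7C, NDUFA4, NDUFA4L2, UQCRFS1, MT-ND5 and MT-ND6 in each sample of the 6 lines, on axes that start at 0; symbols mark the replicate number and bars the line mean. COX7C is lowest in shScrambled (30.6 and 24.8 RPM), and MT-ND5 and MT-ND6 are highest there (MT-ND6 at 4963 and 5208 RPM).

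Across the 6 lines, tested together, 9 of 85 nuclear members and 1 of 13 mitochondrial members differed, against 45.7% of the 23597 genes tested. These counts moved with the samples that stand apart: without replicates 2 of shAjuba2, Control and Ajuba OE, 59 of 84 nuclear members and 13 of 13 mitochondrial members differed, where 61.6% of all genes did. Among the nuclear members called with all samples were COX7C, NDUFA4L2, COX7B2, SDHA, NDUFV2, ATP5MC2, NDUFA13 and NDUFV3, and the mitochondrial member was MT-ND6 (adjusted p = 0.00678). MT-ND6 had its highest line mean in shScrambled and its lowest in Parental.
By range of line means on the log2 scale of CPM (edgeR's counts per 1000000, scaled by TMM), the most variable nuclear members were COX7B2 (2.36, at no more than 0.316 RPM), COX7C (2.16), COX4I2 (1.49, at no more than 0.455 RPM) and NDUFA4L2 (1.23). The least variable were NDUFV1 (0.18), NDUFA7 (0.23), NDUFS7 (0.27) and NDUFA11 (0.28), all of complex I. NDUFA7 had only 33 to 74 counts per sample, and 32.5% of its exonic length lies under another gene on the same strand. NDUFV1 carries the flavin of complex I and NDUFS7 its last iron-sulphur cluster. The median range was 0.63 for nuclear and 0.67 for mitochondrial members. Parental had the lowest line mean for 13 of 13 mitochondrial genes and the highest for 62 of 85 nuclear genes, and shAjuba2, whose mean includes its replicate 2, had the lowest for 55 of 85. How often these lines were the extreme ones over all genes is not given here, so these counts are not read as particular to the members.

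The sums of each complex differed between Parental and shAjuba1 in complexes I, III, IV and V, mitochondrial genes being higher in shAjuba1 and nuclear genes lower, with no overlap of samples. The mitochondrial genes of complex I took 3.20% ± 0.421 (SD, n = 2) of the counts in Parental, 4.46% ± 0.248 (n = 3) in shAjuba1 and 4.72% ± 0.451 (n = 2) in shScrambled. For complex III these shares were 0.650% ± 0.0604, 0.985% ± 0.0967 and 1.08% ± 0.133, for complex IV 2.49% ± 0.205, 4.06% ± 0.108 and 3.99% ± 0.541, and for complex V 0.516% ± 0.0603, 0.804% ± 0.0592 and 0.815% ± 0.0697. In all 4 the mitochondrial shares of shAjuba1 and shScrambled overlapped, so the difference from Parental was not seen against the hairpin control. The nuclear genes of complex I took 0.202% ± 0.00815 in Parental, 0.171% ± 0.00299 in shAjuba1 and 0.188% ± 0.00913 in shScrambled, those of complex III 0.0805% ± 0.00533, 0.0688% ± 0.00287 and 0.0724% ± 0.00570, those of complex IV 0.117% ± 0.0114, 0.0859% ± 0.00276 and 0.0918% ± 0.0080, and those of complex V 0.261% ± 0.0108, 0.195% ± 0.00187 and 0.205% ± 0.0159. Complex II, which has no mitochondrial gene, took 0.0360% ± 0.00161, 0.0294% ± 0.000656 and 0.0324% ± 0.00202. The nuclear shares of shAjuba1 lay below both shScrambled samples in complexes I and II and overlapped with them in the other 3.

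Nuclear respiratory genes share promoter elements for the factors NRF1, GABP of the ETS family and YY1, and the promoters of the members were searched for their short motifs on both strands. Promoter sequences of 300 bases (250 before and 50 after the start, RefSeq, GRCh38.p14) were matched for 70 of the 89 nuclear members. The NRF1 core TGCGCA was found in 20 of them (28.6%) and in 10.8% of 15842 promoters of protein-coding genes, the ETS core CGGAAG in 28 (40.0%) and in 25.6%, and the YY1 motif ATGGCGG in 19 (27.1%) and in 7.63%. Any of the 3 was found in 46 of the 70 (65.7%) and in 36.7% of all promoters. An ETS core can overlap the end of a YY1 motif by the letters CGG, and a match is a description of the sequence only.
The 200 bases before the start are shown for the 2 nuclear members that were higher in shAjuba1, COX7C (chr5:86617741-86617940, plus strand) and UQCRFS1 (chr19:29213152-29213351, minus strand), and for 2 that were lower, NDUFA1 (chrX:119871632-119871831, plus strand) and SDHD (chr11:112086673-112086872, plus strand), with the motifs in capitals.
COX7C: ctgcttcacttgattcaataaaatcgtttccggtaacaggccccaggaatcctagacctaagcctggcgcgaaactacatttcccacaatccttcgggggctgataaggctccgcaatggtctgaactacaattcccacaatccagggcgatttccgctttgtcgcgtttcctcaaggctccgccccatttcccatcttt
UQCRFS1: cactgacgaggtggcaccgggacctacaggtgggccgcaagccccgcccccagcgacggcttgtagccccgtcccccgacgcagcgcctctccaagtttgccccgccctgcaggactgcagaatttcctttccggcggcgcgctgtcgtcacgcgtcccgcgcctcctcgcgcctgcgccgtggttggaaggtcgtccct
NDUFA1: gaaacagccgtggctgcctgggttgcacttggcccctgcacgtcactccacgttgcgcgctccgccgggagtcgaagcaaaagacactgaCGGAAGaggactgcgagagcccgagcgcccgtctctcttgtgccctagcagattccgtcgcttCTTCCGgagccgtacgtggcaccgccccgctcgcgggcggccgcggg
SDHD: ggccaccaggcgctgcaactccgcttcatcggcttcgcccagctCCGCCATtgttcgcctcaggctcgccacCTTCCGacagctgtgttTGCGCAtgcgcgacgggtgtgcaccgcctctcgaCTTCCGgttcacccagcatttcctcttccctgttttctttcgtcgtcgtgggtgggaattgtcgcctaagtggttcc
The window of COX7C and that of UQCRFS1 held none of the 3 motifs, but the 300 bases of COX7C held an NRF1 core outside the window shown. NDUFA1 held the ETS core on both strands, and SDHD held all 3 motifs. These are examples only: of the 24 members that were lower in shAjuba1, 19 had a promoter sequence, of which 13 held a motif and 6 (NDUFA5, NDUFB3, NDUFB6, COX7B, ATP5PO and ATP5IF1) held none, and of 45 members not called 31 held one and 14 none.

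Genes that act on the respiratory chain without being part of it were counted as well, and their calls stand beside 38.4% of all genes in shAjuba1 (18.2% higher, 20.2% lower), 7.63% in shAjuba2 and 5.43% in Ajuba OE. Of 33 genes for mitochondrial transcription, RNA processing and genome maintenance 8 were higher and 0 lower in shAjuba1, 2 higher in shAjuba2 and 0 called in Ajuba OE by edgeR (4 at an unadjusted p under 0.05). The median in shAjuba1 was 0.13 on the log2 scale. Against Parental, 2 were higher and 4 lower in shAjuba1 (median -0.02), so the one-sided count was found with shScrambled as the control and not with Parental. Without replicate 2 of shAjuba2, 3 were higher and 1 lower in that line, and without both replicates 2, 1 was higher in Ajuba OE. POLRMT, the mitochondrial RNA polymerase, was higher in both KD lines than in shScrambled: it was at 37.4 and 42.5 RPM in shScrambled, 56.8, 52.9 and 65.3 RPM in shAjuba1 and 57.4, 63.0 and 60.8 RPM in shAjuba2 (log2 fold changes 0.53 and 0.55). Parental stood at 38.1 and 42.7 RPM, Control at 36.5, 52.9 and 45.7 RPM and Ajuba OE at 51.9, 58.9 and 46.7 RPM, so that some samples of the last 2 lines reached the range of the KD lines. ELAC2, which cuts mitochondrial transfer RNAs out of the long transcripts, was at 70.7 and 76.0 RPM in shScrambled, 93.5, 88.2 and 103.1 RPM in shAjuba1 and 106.7, 104.8 and 120.2 RPM in shAjuba2 (0.36 and 0.54). By edgeR the adjusted p in shAjuba1 and shAjuba2 was 0.00137 and 0.0423 for POLRMT, and 0.00635 and 0.0409 for ELAC2. Both values in shAjuba2 lay near the threshold, and fits without single samples are not given here for these genes. In both KD lines the samples did not overlap with shScrambled for either gene, whereas the mitochondrial members themselves were not higher by test in either line against shScrambled. For ELAC2, Parental at 100.9 and 103.5 RPM, Control at 86.8, 96.4 and 97.6 RPM and Ajuba OE at 104.6, 108.5 and 100.3 RPM also lay above both shScrambled samples.

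Of 13 tested regulators of nuclear respiratory genes 6 were higher and 1 lower in shAjuba1 and 1 was lower in shAjuba2, and of 12 tested in Ajuba OE 1 was higher. Against Parental, 4 were higher and 2 lower in shAjuba1. Without replicate 2 of shAjuba2, 4 were higher and 1 lower in that line, where 22.7% of all genes were DEG, and without both replicates 2, 3 were higher in Ajuba OE. ESRRG, an orphan nuclear receptor that binds promoters of oxidative metabolism genes, was the regulator called in both KD lines. It was at 2.83 and 3.20 RPM in shScrambled and 2.59 and 1.88 RPM in Parental, at 0.607, 0.531 and 0.414 RPM in shAjuba1 and at 0.150, 0.0451 and 0.0412 RPM in shAjuba2 (log2 fold changes -2.54 ± 0.21 and -5.26 ± 0.38). Control, at 0.175, 0.102 and 0.205 RPM, and Ajuba OE, at 0.0287, 0 and 0 RPM, also lay below both shScrambled and both Parental samples.

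Of 60 assembly factors and cytochrome c genes 8 were higher and 11 lower in shAjuba1 (31.7%, near the 38.4% of all genes; median log2 fold change 0.02), and 0 were called in shAjuba2 and in Ajuba OE by edgeR (7 and 5 at an unadjusted p under 0.05). This list also names CYC1 and NDUFAB1, subunits of complexes III and I that the choice of members by name leaves out. Against Parental, 3 of the 60 were higher and 20 lower in shAjuba1 (median -0.19). Without replicate 2 of shAjuba2, 1 was higher and 3 were lower in that line, and without both replicates 2, 1 was higher in Ajuba OE.
Of 81 mitochondrial ribosomal protein genes 13 were higher and 5 lower in shAjuba1 (22.2% against 38.4% of all genes), with a median log2 fold change of 0.08, and 0 were called in the other 2 comparisons (10 and 5 at an unadjusted p under 0.05). The direction turned with Parental as the control, against which 6 were higher and 23 lower in shAjuba1 (median -0.21). Without replicate 2 of shAjuba2, 3 were higher and 9 lower in that line, and without both replicates 2, 3 were higher in Ajuba OE.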

How the data were processed

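The deposited files hold unnormalised counts per gene for 16 samples of 6 SW480 lines, all of which were used. The authors sequenced stranded mRNA libraries, aligned reads to hg38 with HISAT2 and counted exons with featureCounts; the strand option, the treatment of multi-mapping or overlapping reads, the annotation release and versions are not given in the sources used here. Of 66023 genes, 56434 were found in GENCODE release 44, which hold 99.8% of counts. RPM is the count per 1000000 counts of the sample.

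Lines were compared 2 at a time with edgeR 4.0.16 (R 4.3.3): filterByExpr, TMM, and the quasi-likelihood test (two-sided), with DEG at a Benjamini-Hochberg adjusted p under 0.05 over all genes. The 6 lines were tested in 1 F-test. The SE of a log2 fold change was derived from it and F (its size over the square root of F). Fits were tested on simulated data. DESeq2 1.42.0, other scalings and filters, a replicate block, Parental as control, and leaving out samples were alternatives; leaving out replicates 2 together was added after seeing the data.

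Members and lists were chosen with earlier results of these data known. Named were all mitochondrial genes, SDHA to SDHD, isoform pairs, ATP5IF1, the highest member per complex, the 6 largest changes among those called per comparison, the 4 most and least variable members across lines, and list genes called in both KD lines. Other members called are named with their values in fewer words. Total counts were 30132396 to 69684675, and the smallest count of a mitochondrial member was 43293, so depth limits only the few members near 0. The values of 1 nuclear member are not reported here by name; it was kept in the counts and sums.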

Additional observations from a re-analysis of the deposited data

How the results depend on the processing

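Of 390 alternative values of the 30 calls made in single members, 293 kept their direction and side of the threshold, 93 were no longer past it and 4 turned, all with Parental as the control: COX7C to -0.57 in shAjuba1 and -0.54 in Control, MT-ND5 to 0.17 and MT-ND6 to 0.052. Counts of called nuclear members moved as follows. In shAjuba1 (26) the fit of all 16 samples gave 3 and Parental 53; in shAjuba2 (1) DESeq2 gave 2 and the fit of all samples or the filter at 1 count 6; in Ajuba OE (0) DESeq2 and the fit of all samples gave 1 and leaving out both replicates 2 gave 6; in Control (1) the filter at 1 count gave 7 and Parental 0; across the lines (9) DESeq2 gave 14, the filter at 1 count 55 and leaving out replicates 2 of 3 lines 59. For mitochondrial members the fit of all samples gave 1 and Parental 11 in shAjuba1 (2); DESeq2 and the fit of all samples gave 1 and the filter at 1 count 2 in shAjuba2 (0); the filter gave 3 in Control (0); and DESeq2 gave 3, the filter 12 and leaving out replicates 2 13 across the lines (1). The shares of all genes called under DESeq2, the fit of all samples and the filter at 1 count are not given here. These counts are therefore not read as particular to the members. The cause was not tested. Against Parental the log2 ratio of mitochondrial to nuclear counts was 0.93 in shAjuba1, 0.95 in shAjuba2, 0.57 in Ajuba OE and 0.79 in Control.

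Without single samples the nuclear counts ran from 9 to 39 in shAjuba1, 0 to 13 in shAjuba2, 0 to 4 in Control and 5 to 17 across the lines, and were 0 throughout in Ajuba OE; the mitochondrial counts ran from 1 to 2, 0 to 9, 0 to 9 and 1 to 3, with 0 throughout in Ajuba OE. Of all genes, 22.7% were called in shAjuba2 without its replicate 2 and 17.4% in Control without its replicate 2. For the other fits without single samples that share is not given here. The log2 ratio ran from -0.12 to 0.25 in shAjuba1, -0.40 to 0.45 in shAjuba2, -0.63 to 0.18 in Ajuba OE and -0.49 to 0.22 in Control.

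The replicate number as a block gave 56 nuclear calls in shAjuba2 (54 lower), 46 in Ajuba OE (45 higher), 3 in Control, and 25 nuclear and 2 mitochondrial calls across the lines. The shares of all genes called with this block are not given here, so these counts are not read as particular to the members. No label says that a number marks a shared batch, and the mean correlation of same-numbered samples was -0.01 in shAjuba1, 0.15 in shAjuba2, 0.24 in Ajuba OE (-0.05 to 0.62) and 0.25 in Control. Replicates 2 of 3 lines stood apart together, but not every pair of Ajuba OE and Control correlated and shScrambled has only 2 numbers, so the numbers were not taken to pair the samples.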

Other observations

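Replicate 3 of both KD lines stood high for a few nuclear members, which were picked after their values were seen. ATP5F1D, the delta subunit of the ATP synthase stalk, was at 22.6, 19.2 and 38.3 RPM in shAjuba1 replicates 1, 2 and 3 and at 23.1, 22.5 and 38.5 RPM in shAjuba2, against 13.6 to 27.0 RPM in the other lines. UQCRFS1 was at 59.1 RPM in replicate 3 of shAjuba1 and at 61.9 RPM in replicate 3 of shAjuba2, against 20.9 RPM in replicate 2 of shAjuba2. COX5A, a nuclear subunit of complex IV, was at 59.0 and 69.7 RPM in these samples and at 23.1 RPM in replicate 2 of shAjuba2, and replicate 1 of Ajuba OE was as high (63.5 RPM). ATP5F1D was not called in either KD line (adjusted p = 0.0841 and 0.212 by edgeR).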
